A study of Mus musculus with 146 samples.

Results

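Bone marrow-derived macrophage cultures that carried the most RNA of 4 osteoclast genes were compared with the cultures that carried the least. Each of the 146 cultures came from a different outbred CFW mouse (Crl:CFW(SW)-US_P08) of 16 weeks, and polyadenylated RNA was sequenced in 1 library per mouse. Marrow cells had been grown for 5 days in medium with L929-conditioned medium, a source of the growth factor CSF1, and the labels give no treatment. RANKL, the cytokine that drives osteoclast formation, is not named among the additions. The score of a culture was the mean z-score of Atp6v0d2, Itgb3, Acp5 and Ctsk, taken as log2 (CPM + 1) after the mean of each plate had been subtracted, where CPM is the count of a gene divided by the total of its library, on the usual scale. The 36 highest-scoring cultures (21 labelled female, 15 male) and the 36 lowest-scoring ones (23 female, 13 male) were selected on these measured levels, and 74 cultures lie between them. All these mice share stock, age and culture protocol, and the groups were formed by a measured value and not by a labelled genotype or agent. Genotypes of these outbred mice were not compared between the groups. A culture holds whatever cells the marrow of that mouse gave, and in such bulk RNA fewer cells of a type and less RNA per cell cannot be told apart.

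Osteoclasts are the bone-resorbing cells that form when macrophage precursors, under CSF1 and RANKL, fuse into giant cells with many nuclei. RANKL acts through its receptor RANK (Tnfrsf11a) and the transcription factor NFATc1, which switches on the fusion proteins DC-STAMP and OC-STAMP and the resorption genes. The mature cell seals itself to bone with the integrin αvβ3, pumps acid through a vacuolar proton pump and a chloride channel, and digests collagen with cathepsin K. Macrophages without RANKL are known to express some of these genes.

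The 4 score genes chose the groups, so their values are a description with no test. Atp6v0d2 (chromosome 4, 19876841 to 19922605, GRCm38) encodes a proton pump subunit that also takes part in fusion. Its level was 1.33, 7.49 and 45.1 CPM as lowest, median and highest low-scoring culture, and 11.7, 42.8 and 172.5 CPM in the high-scoring ones. Itgb3 (chromosome 11, 104608000 to 104670476), the integrin β3 chain, had 5.11, 13.7 and 27.9 CPM against 7.17, 53.1 and 175.5 CPM. Ctsk (chromosome 3, 95499256 to 95509362), cathepsin K, had 5.22, 10.3 and 15.1 CPM against 10.8, 18.4 and 42.7 CPM. Acp5 (chromosome 9, 22126727 to 22135711), the tartrate-resistant phosphatase used to stain osteoclasts, had 15.3, 23.8 and 33.4 CPM against 24.5, 30.7 and 43.5 CPM. The ranges of the groups overlap for each of the 4 genes, and Acp5 separates them least. The next counts use log2 (CPM + 1) after the mean of each plate was subtracted. In 18 of the 36 high-scoring cultures all 4 genes lay above their median over the 146 cultures, and in 27 of the 36 low-scoring ones none did. The other 18 high-scoring cultures owe their place to a subset of the genes. Pearson r was taken on the same plate-centred values. Over the 146 libraries, which share plates and collection dates, the 6 pairs of score genes had an r between 0.12 for Itgb3 with Acp5 and 0.48 for Atp6v0d2 with Itgb3.

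**Figure D1:**
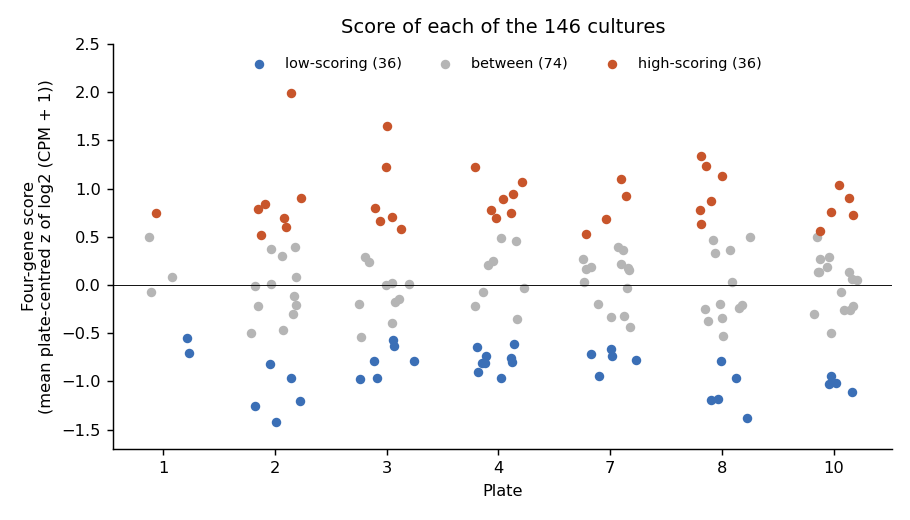
Score of each culture by plate (horizontal axis: plate; vertical axis: mean plate-centred z-score of the 4 genes), with 1 point per culture. Over all cultures together the scores have no gap at the limits of the groups, while single plates do have gaps. The highest culture reaches 1.99.

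The score has no gap at either limit. The lowest high-scoring culture (male 12) had a score of 0.52 and the highest culture outside the group (female 21) had 0.50. The highest low-scoring culture (male 8) had −0.55 and the next culture up (female 37) had −0.54. Plate 1 gave 1 high- and 2 low-scoring cultures, and each of the other 6 plates gave 4 or more of each, so differences within these 6 plates are given beside the fitted ones.

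RefSeq promoter windows (GRCm38.p6) were at hand for Ctsk and Acp5 among the score genes. They are shown because the MITF family of transcription factors, which acts in osteoclasts, is known to bind E-box letters in resorption genes. Capitals mark TCANNTGA, searched on both strands of 250 bases before to 50 after each annotated start. The 250 bases before the start are printed 5′ to 3′ on the strand of the gene, for Ctsk chr3:95498960-95499209 (plus strand) and for 1 of 3 windows of Acp5 chr9:22130599-22130848 (minus strand).
Ctsk: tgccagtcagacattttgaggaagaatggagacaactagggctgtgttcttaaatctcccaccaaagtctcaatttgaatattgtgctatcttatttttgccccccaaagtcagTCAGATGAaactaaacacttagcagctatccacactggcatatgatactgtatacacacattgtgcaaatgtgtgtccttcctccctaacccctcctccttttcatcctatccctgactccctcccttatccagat
Acp5: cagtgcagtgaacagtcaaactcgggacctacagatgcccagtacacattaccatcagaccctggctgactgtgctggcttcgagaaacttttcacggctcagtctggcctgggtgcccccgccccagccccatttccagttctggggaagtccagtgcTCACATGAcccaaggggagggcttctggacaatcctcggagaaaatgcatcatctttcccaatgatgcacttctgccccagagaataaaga
This motif was in 1 window of each gene. It was in any window of 9.56% of the 27025 genes in the table, and in 8.39% of its 32851 windows. The AP-1 letters TGANTCA, which bind Fos and Jun proteins, were in none of the windows of Ctsk and Acp5 and in 7.81% of all windows.

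Between the groups 12017 genes were tested with edgeR, with plate as covariate, and 57.7% of them passed an adjusted p of 0.05. High-scoring cultures were higher for 28.6% and lower for 29.2% of the genes tested. Most differences were small, with a median of 0.20 on the log2 scale (either direction) among the genes called, and only 276 genes differed more than 2-fold, 255 of them higher in the high-scoring cultures and 21 lower. In no gene were the 2 groups free of overlap. A call is therefore common in this comparison, and the counts below are to be read against these shares. The p-values are over mice that were sorted on the same RNA, and they do not allow for likeness between mice collected on 1 date.

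The libraries were first compared by depth, sex and collection date. A difference in depth was not detected by a permutation test within plates (two-sided p = 0.338), with medians of 47.6 M counts in the high-scoring cultures and 48.4 M in the low-scoring ones and a range of 14.5 to 121 M over the series. Nor was a difference in the share of females (two-sided permutation p = 0.812). The collection dates did differ (permutation p = 0.00027 within plates). Dates were used as the labels write them, in more than 1 format. A day written in 2 ways would therefore count as 2 dates. Of 26 dates among the 72 cultures, 10 held both groups, 9 only high- and 7 only low-scoring cultures, and on 2 dates all 5 libraries collected were high-scoring. When the date replaced the plate in the fit 2837 of 12017 genes passed, 1352 higher and 1485 lower, where 6939 had passed with plate. Counts by list from the date fit are to be read against these numbers. Within the 36 cultures of the 10 shared dates 3744 passed. In 2 high-scoring cultures and in none of the low-scoring ones, Y-linked counts went against the labelled sex, and without them 6698 genes passed.

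Markers of granulocytes and their precursors were mostly higher in the high-scoring cultures, and 15 of 15 genes of DNA replication and 9 of 16 of mitosis were lower. Of 13 granulocyte markers 12 were tested and 10 passed, each higher, with a median log2 difference of 0.91, where the median of all genes was 0.00. Their summed level was 77.6 to 634 CPM (median 319) in the low- and 189 to 1526 CPM (median 486) in the high-scoring cultures, and Ly6g, a defining marker of mature neutrophils, had 62 counts over the 36 high- and 36 counts over the 36 low-scoring cultures. The mean z-score of the granulocyte markers had a median of 0.51 in the high- and −0.19 in the low-scoring cultures, and that of the replication and mitosis genes −0.44 and 0.53. With both z-scores as covariates beside plate, 10.5% of the genes tested passed, and 1111 of the 6939 genes called before remained. In this fit 656 of 12017 genes were higher and 601 lower. Counts by list with both scores are to be read against these low shares, under which few or no calls in a short list are common. Of the 276 genes over 2-fold, 78 were still called. The part of cell composition and growth in the results below was not tested beyond these fits, and a covariate that moves with the score also takes up part of the score itself.

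Osteoclast genes outside the score went both ways. The fusion genes Dcstamp and Ocstamp, the protease gene Mmp9, the pump gene Tcirg1 and the kinase gene Src were higher in the high-scoring cultures. With both cell scores as covariates Dcstamp, Ocstamp and Mmp9 lost their call, and Src kept it. Mmp9 is also a gene of granulocytes, whose markers were mostly higher in these cultures. Nfatc1 was slightly lower, Tnfrsf11a was not called, and Clcn7 and Ostm1, which form the chloride transporter of the resorbing membrane, were lower. Calcr, the calcitonin receptor and a marker of mature osteoclasts, had 1 count over the 36 high-scoring libraries and 0 counts over the 36 low-scoring ones, where 3 counts would be 0.00167 CPM. Oscar, a co-stimulatory receptor of osteoclasts, had 17 and 20 counts. Car2, the carbonic anhydrase that makes the acid, had 423 counts over the high- and 318 over the low-scoring libraries. The groups are therefore called high- and low-scoring cultures, and not osteoclasts.

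Among receptors and signalling proteins, 17 of 20 listed genes were tested, 6 were higher and 5 lower, and the median was 0.04. With both cell scores 4 were called higher and 1 lower, and with the date 3 and 1. Tnfrsf11a, the RANK receptor, had 67.4, 101.8 and 146 CPM (lowest, median, highest) in the low-scoring cultures and 64.4, 105 and 159 CPM in the high-scoring ones. Its log2 difference was 0.04 ± 0.07 (SE, adjusted p = 0.601), and the groups cover nearly the same range. Src, a kinase needed for the ruffled border, had 0.368, 0.917 and 2.11 CPM against 0.619, 2.14 and 5.43 CPM, and 35 of 36 high-scoring cultures lay above the low-scoring median. The log2 difference of Src was 1.18 ± 0.14 (adjusted p = 1.86e-10), and it was higher on each of the 6 plates. Tm4sf19, a tetraspanin-like membrane protein, had 3.11, 5.42 and 9.97 CPM against 4.92, 9.52 and 18.1 CPM, with a log2 difference of 0.88 ± 0.10 (adjusted p = 4.23e-11). Tm4sf19 kept 0.92 with both cell scores as covariates (adjusted p = 3.01e-05), and Src 0.64 (adjusted p = 0.0176). Syk, the kinase downstream of the co-stimulatory receptors, rose by 0.37 ± 0.04 on the log2 scale (adjusted p = 4.88e-12), from a median of 376 to 499 CPM. Trem2 and Tyrobp, a co-stimulatory receptor and its adaptor, were 0.24 and 0.13 higher (adjusted p = 3.38e-06 and 0.00153). Plcg2, the phospholipase that Syk signals to, fell by 0.21 on the log2 scale (adjusted p = 9.65e-07). Itgav, the α chain that pairs with Itgb3, was also lower, by −0.36 ± 0.08 (adjusted p = 6.4e-05), with medians of 331 CPM in the low- and 247 CPM in the high-scoring cultures. Ptk2b, a focal adhesion kinase that integrins activate, had −0.16 (adjusted p = 0.000411). Traf6, the adaptor that binds RANK, had 0.03 (adjusted p = 0.285) and was not called.

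Transcription factors of osteoclast formation showed small differences. Of the 15 tested, 8 were higher and 2 lower, and the median was 0.08. Nfatc1, the master regulator, had 55.6, 76.3 and 95.1 CPM in the low- and 55.5, 69.9 and 87.04 CPM in the high-scoring cultures. Its log2 difference was −0.10 ± 0.04 (adjusted p = 0.0142), with 30 of 36 high-scoring cultures under the low-scoring median but 2 of 6 plates in the other direction. Fitted with the date instead of the plate it had −0.07 (adjusted p = 0.334). Fosl2 and Jun, which are AP-1 subunits, were higher. Fosl2 went from a median of 46.1 to 60.5 CPM, a log2 difference of 0.41 ± 0.06 (adjusted p = 1.22e-07), and Jun from 165 to 209 CPM, a difference of 0.29 ± 0.05 (adjusted p = 9.04e-06). Fos itself, with medians of 21.6 and 17.98 CPM, was not called (−0.17 ± 0.09, adjusted p = 0.104). Mitf, Tfec and Myc were not called either, with log2 differences of 0.04, 0.01 and 0.03. Tfeb, which drives lysosome genes, was 0.20 higher (adjusted p = 0.000386), and Spi1, the macrophage factor PU.1, 0.14 higher (adjusted p = 0.000118). Ppargc1b, a coactivator for mitochondria in osteoclasts, was lower (−0.23, adjusted p = 0.00559). None of the 15 passed with both cell scores as covariates, in a fit where 10.5% of all genes tested passed.

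Genes that hold back osteoclast formation did not move in 1 direction. Of the 10 tested, 4 were higher and 2 lower. Tnfaip3, the NF-κB inhibitor A20, rose by 0.42 ± 0.10 on the log2 scale (adjusted p = 0.000199), from a median of 35.4 to 49.7 CPM. Within plates Tnfaip3 had 0.95, 0.66 and 0.74 on plates 2, 7 and 8, but 0.03, −0.06 and −0.03 on plates 3, 4 and 10. Id1, an inhibitor of helix-loop-helix factors, fell by 0.33 ± 0.05 (adjusted p = 9.11e-08), while Id2 was 0.16 higher (adjusted p = 0.00346). Irf8 and Bcl6, both repressors of the programme, had 0.08 (adjusted p = 0.265) and 0.17 (adjusted p = 0.0797).

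Of 13 listed genes of cell fusion 12 were tested, 8 were higher and none was lower, with a median of 0.14. With both cell scores 2 of the 12 were called. Dcstamp had 0.379, 1.41 and 5.51 CPM in the low- and 1.03, 3.33 and 14.3 CPM in the high-scoring cultures, so that most cultures overlap and 9 high-scoring ones exceed the highest low-scoring one. Its log2 difference was 1.16 ± 0.24 (adjusted p = 5.08e-05), and it was higher on each of the 6 plates. Ocstamp had 0.0279, 0.482 and 1.49 CPM against 0.258, 1.09 and 4.33 CPM, a log2 difference of 1.19 ± 0.22 (adjusted p = 3.76e-06), with 14 high-scoring cultures above all low-scoring ones. Dcstamp, with both cell scores as covariates, had 0.57 (adjusted p = 0.301) and Ocstamp 0.14 (adjusted p = 0.784), so neither call held there. Cd44 and Cd47, adhesion and self-recognition proteins that take part in macrophage fusion, were 0.34 ± 0.05 and 0.29 ± 0.04 higher (adjusted p = 3.22e-08 and 2.07e-08) and were still called with both scores (0.21 and 0.18, adjusted p = 0.026 and 0.0364). The tetraspanin gene Tspan5 was 0.31 higher, while the tetraspanins Cd9 and Cd81 had 0.05 and −0.01 and were not called.

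**Figure D2:**
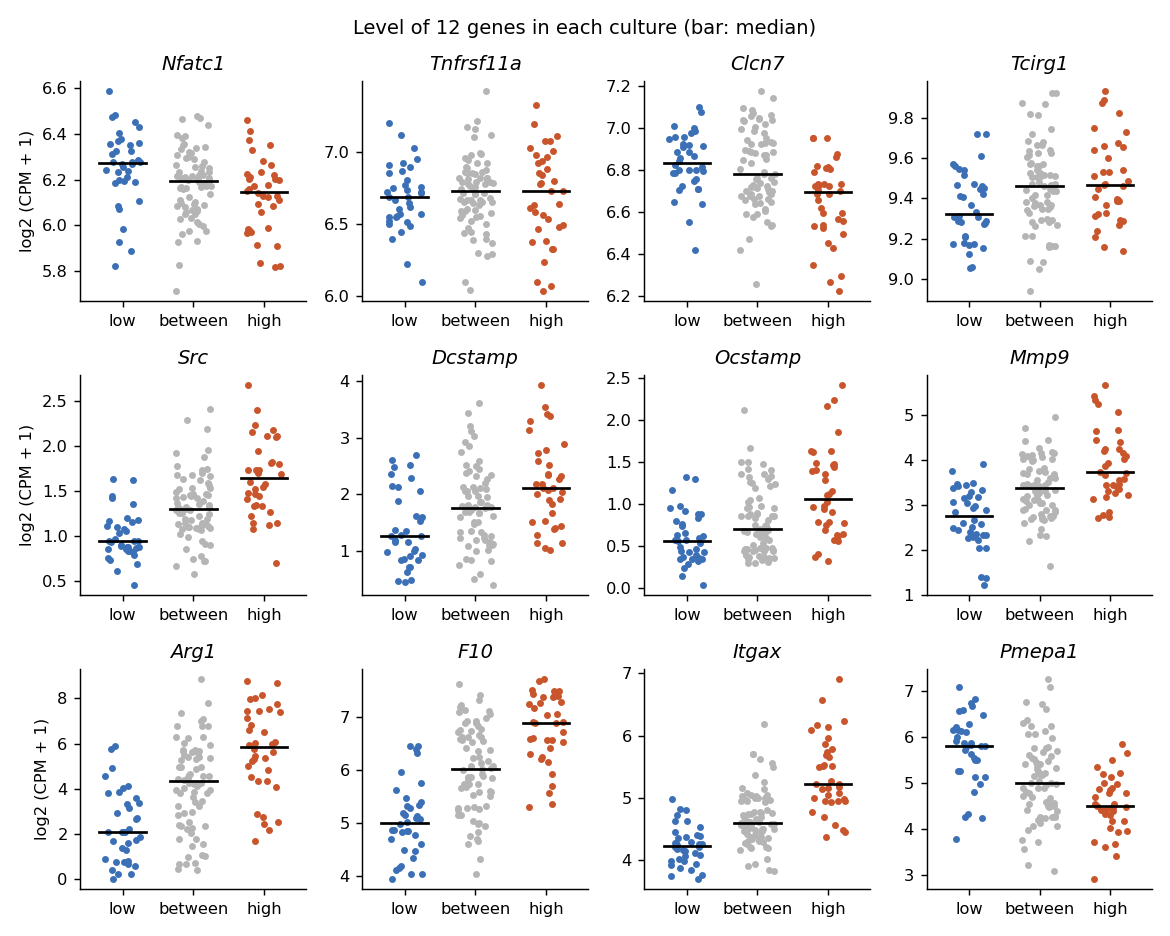
Levels of 12 genes in each culture (vertical axes: log2 (CPM + 1), on separate scales; bars: medians of 36 low-scoring, 74 between and 36 high-scoring cultures). The groups overlap in every panel. Dcstamp, Ocstamp, Mmp9, Src, Arg1, F10 and Itgax have higher medians and Nfatc1, Clcn7 and Pmepa1 lower medians in the high-scoring cultures.

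The acid-secreting machinery of the resorbing cell was not higher as a group. Of 10 listed genes 8 were tested, 2 were higher and 4 lower, with a median of −0.06. Tcirg1, the pump subunit whose loss causes osteopetrosis, had medians of 640 and 706 CPM and a log2 difference of 0.15 ± 0.04 (adjusted p = 0.0022), and Rab3d, a vesicle GTPase, was 0.23 higher (adjusted p = 0.0053). Clcn7 had 84.6, 113 and 136 CPM in the low- and 73.8, 102.6 and 123 CPM in the high-scoring cultures, and it was lower on each of the 6 plates (−0.15 ± 0.03, adjusted p = 6.25e-05). Its partner Ostm1 was −0.10 (adjusted p = 0.00245). Slc4a2, the bicarbonate exchanger, fell by 0.27 on the log2 scale (adjusted p = 4.39e-07), and Snx10, a sorting nexin, by 0.11 (adjusted p = 0.0025). None of the 4 genes that fell was called with both cell scores as covariates. The 17 other subunits of the proton pump were all tested, 3 were higher and 5 lower, and their log2 differences ran from −0.26 for Atp6ap2 to 0.12 for Atp6v1b2. Atp6v0d1, the widely expressed counterpart of Atp6v0d2, was slightly lower, with 241, 268 and 293 CPM against 201, 246 and 272 CPM and a log2 difference of −0.10 ± 0.02 (adjusted p = 6.73e-05).

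Of 10 matrix-degrading proteases tested 7 were higher and none lower, with a median of 0.62, and 4 were called higher with both cell scores. Mmp9, a gelatinase of osteoclasts and granulocytes, had 1.32, 5.77 and 14.2 CPM in the low- and 5.58, 12.3 and 50.4 CPM in the high-scoring cultures, a log2 difference of 1.31 ± 0.17 (adjusted p = 2.45e-09). Mmp9 had 0.32 with both cell scores as covariates (adjusted p = 0.274). Mmp8, the neutrophil collagenase, had 165, 258 and 840 CPM against 202, 570 and 1074 CPM (1.02 ± 0.12, adjusted p = 1.19e-10), and was still called with both scores (0.54, adjusted p = 0.0166). Mmp19 went from a median of 42.5 to 70.3 CPM (0.80 ± 0.11, adjusted p = 1.49e-08). Ctsl, cathepsin L, had 814, 1107 and 2312 CPM against 1243, 2186 and 3916 CPM, and every high-scoring culture lay above the low-scoring median. Its log2 difference was 0.95 ± 0.09 (adjusted p = 1.59e-12), with the limit that 21.7% of its 50-mers occur in other genes. The lysosomal cathepsins Ctsb and Ctsd had 0.06 and −0.08 and were not called, and the count of Ctsd is uncertain because part of its sequence is shared with other genes.

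Podosome and adhesion genes were mixed, with 7 of 15 higher and 3 lower (3 and 1 with both scores). Itgb2, the integrin chain of leukocytes, was 0.35 ± 0.04 higher (adjusted p = 2.19e-09), from a median of 782 to 1030.0 CPM. Pstpip1, an adaptor of podosomes, and Gsn, the actin-severing protein gelsolin, were 0.29 and 0.28 higher (adjusted p = 6.97e-09 and 7.05e-09). Vcl, vinculin, was 0.48 higher with 107 and 151 CPM as medians (adjusted p = 2.22e-12), where its count is uncertain because part of its sequence is shared with another gene.

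Of 10 listed signals that osteoclasts receive or send, 5 were tested, 3 were higher and none was lower. Sema4d, a semaphorin by which osteoclasts signal to osteoblasts, had 303.6, 417.5 and 513 CPM in the low- and 316.9, 394.5 and 562 CPM in the high-scoring cultures and was not called (−0.02 ± 0.04, adjusted p = 0.743). Tnfsf11, which encodes RANKL, had 53 counts over the 36 high- and 31 over the 36 low-scoring libraries, and its decoy receptor Tnfrsf11b 66 and 67 counts. Il34, the second ligand of the CSF1 receptor, had 5 and 9 counts. Csf1 had medians of 17.95 and 19.6 CPM and was not called (0.19 ± 0.11, adjusted p = 0.145). Efnb2, a membrane ligand by which osteoclasts signal to osteoblasts, had medians of 0.134 and 0.344 CPM (1.26 ± 0.19, adjusted p = 7e-08), and Sphk1, which makes sphingosine 1-phosphate, 0.131 and 0.317 CPM (1.31 ± 0.23, adjusted p = 1.69e-06). Neither Efnb2 nor Sphk1 was called with both cell scores as covariates (adjusted p = 0.103 and 0.0742).

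The largest differences lay outside the osteoclast lists. Arg1, the arginase of alternatively activated macrophages, had 0.015, 3.28 and 59.5 CPM in the low- and 2.29, 57.2 and 434 CPM in the high-scoring cultures. Its log2 difference was 3.56 ± 0.46 (adjusted p = 2.59e-09), between 2.44 and 4.08 within the 6 plates, and 35 of 36 high-scoring cultures lay above the low-scoring median. With both cell scores as covariates it was 1.40 (adjusted p = 0.0623). Thbs1, the secreted protein thrombospondin 1, had 5.68, 32 and 154.5 CPM against 17.8, 128 and 558.5 CPM (2.16 ± 0.24, adjusted p = 6.27e-11), and 0.51 with both scores (adjusted p = 0.168). Neither Arg1 nor Thbs1 thus kept its call in that fit.

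Other genes kept their call there. F10, coagulation factor X, had 14.3, 30.9 and 86.7 CPM against 38.1, 118 and 211 CPM, and 26 high-scoring cultures exceeded every low-scoring one (1.75 ± 0.14, adjusted p = 5.8e-15; 1.08 with both scores, adjusted p = 4.01e-05). Dio2, the deiodinase that activates thyroid hormone, had 1.14, 3.54 and 9.64 CPM against 4.09, 13.9 and 33.6 CPM (1.81 ± 0.17, adjusted p = 7.29e-13). Egr2, a transcription factor of macrophage differentiation, had 0.787, 3.31 and 13.3 CPM against 4.25, 12.2 and 32.4 CPM (1.74 ± 0.18, adjusted p = 5.39e-12). In the fit with both scores Egr2 had 1.60 (adjusted p = 3.07e-05), and Dio2 had 1.22 there (adjusted p = 0.000434). Pltp, the phospholipid transfer protein, went from a median of 25.99 to 95.5 CPM (1.58 ± 0.16), Sdc1, the proteoglycan syndecan 1, from 13.4 to 51.96 CPM (1.97 ± 0.20), and Cd38, an NAD-consuming ectoenzyme, from 1.23 to 5.47 CPM (2.13 ± 0.31). Each of these 3 was still called with both scores, with log2 differences of 1.00, 0.84 and 1.30. Scd1, a fatty acid desaturase, had 1.73 ± 0.34 with medians of 0.449 and 2.27 CPM. The kallikrein gene Klk1b11 had 1.89 ± 0.26 and Mefv, which encodes pyrin, 1.68 ± 0.20, and neither was called with both scores (0.57 and 0.40).

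**Figure D3:**
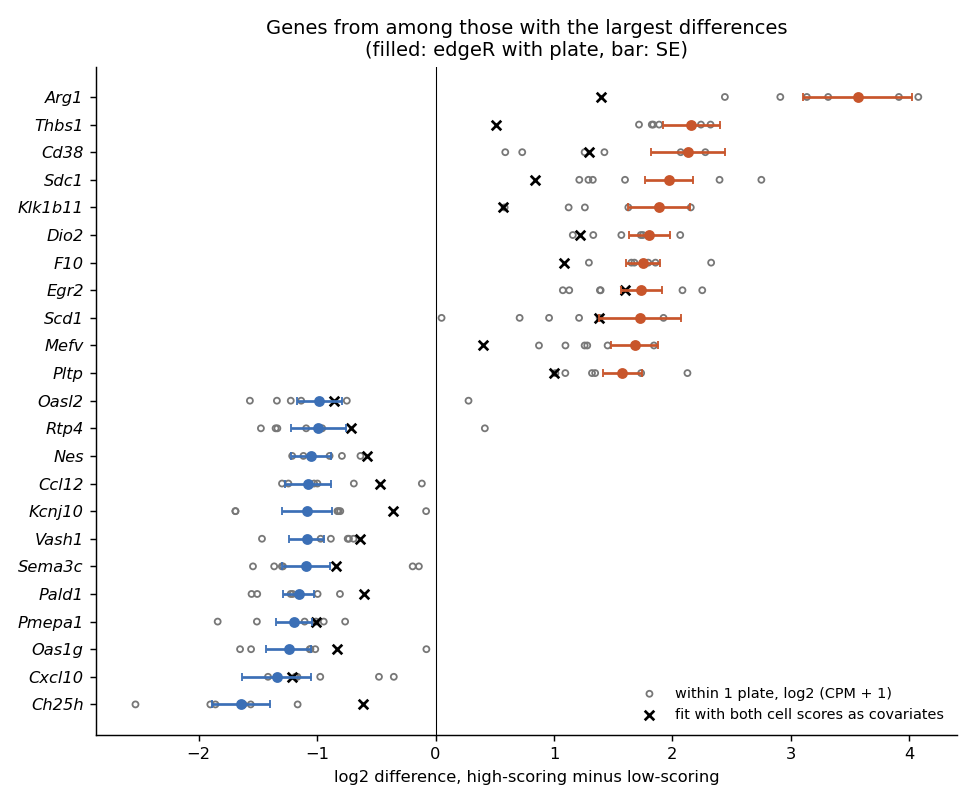
Genes from among those with the largest differences in each direction (horizontal axis: log2 difference, high- minus low-scoring; filled points with bars: edgeR with plate ± SE; open circles: difference within each of 6 plates; crosses: fit with both cell scores as covariates). Arg1 stands apart at 3.56, Oasl2 and Rtp4 each have 1 plate above 0, and the crosses lie nearer 0 than the filled points.

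The genes that were lowest in the high-scoring cultures included several interferon-induced ones. Ch25h, which makes 25-hydroxycholesterol, had 11.6, 48.8 and 124 CPM in the low- and 1.04, 11.3 and 58.9 CPM in the high-scoring cultures, and 33 of 36 high-scoring ones lay under the low-scoring median (−1.64 ± 0.25, adjusted p = 8.12e-08). With both cell scores as covariates it was −0.61 (adjusted p = 0.153). Pmepa1, a membrane protein that TGF-β induces, had 12.7, 55.04 and 134 CPM against 6.52, 21.5 and 56.3 CPM (−1.20 ± 0.15, adjusted p = 1.67e-09), and it was −1.005 with both scores (adjusted p = 0.00258). Pald1, which encodes paladin, had 16.3, 48.8 and 95.3 CPM against 6.08, 19.96 and 47.1 CPM, and all 36 high-scoring cultures lay under the low-scoring median (−1.16 ± 0.13, adjusted p = 1.93e-10). Cxcl10, a chemokine that interferon induces, had medians of 5.25 and 1.45 CPM (−1.34 ± 0.29, adjusted p = 9.46e-05). Vash1, Sema3c, Kcnj10, Ccl12 and Nes had log2 differences between −1.09 and −1.05, and each was lower on all 6 plates.

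Interferon-response genes were mostly lower, but not on every plate. All 20 listed genes were tested, 18 were lower and none was higher, with a median of −0.60. Within plates 2, 3, 4 and 10 all 20 genes were below 0, and on plate 8 18 of them. On plate 7, with 4 high- and 5 low-scoring cultures, 15 of the 20 were above 0, with a median of 0.12. Ifih1, the RNA sensor MDA5, had 18.5, 27.3 and 49.2 CPM in the low- and 10.8, 18.8 and 35.9 CPM in the high-scoring cultures (−0.53 ± 0.07, adjusted p = 1.25e-08). Oasl2, an antiviral protein of the oligoadenylate synthetase family, had 7.70, 28.8 and 87.1 CPM against 4.02, 11.5 and 59.97 CPM (−0.98 ± 0.19, adjusted p = 1.16e-05), and was lower on 5 of 6 plates. Isg15, a ubiquitin-like protein, had medians of 7.27 and 3.76 CPM (−0.77 ± 0.16, adjusted p = 6.22e-05) and Ifit1, which binds viral RNA, 7.504 and 4.099 CPM (−0.69 ± 0.26, adjusted p = 0.0173). Oas1g was −1.24 but shares 47.6% of its 50-mers with other genes. With both cell scores as covariates 4 of the 20 were called lower, and the median was −0.46. With the date instead of the plate 9 were called lower, in a fit where 1485 of 12017 genes were lower.

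The promoters of Isg15 and Ifit1 are shown because most genes of this list were lower. Capitals mark the interferon-stimulated response element (GAAA, then NN, then GAAA) on either strand, and adjoining matches run into each other. The bases are those of chr4:156200850-156200921 (GRCm38.p6, minus strand) for Isg15 and chr19:34640760-34640838 (plus strand) for Ifit1, all before the annotated start.
Isg15: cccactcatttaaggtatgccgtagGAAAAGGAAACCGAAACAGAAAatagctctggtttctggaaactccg
Ifit1: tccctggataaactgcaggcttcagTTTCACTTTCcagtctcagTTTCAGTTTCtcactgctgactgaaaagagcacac
Of the 20 genes 15 had a window in the RefSeq table, and 10 of the 15 held the element, against 3.99% of the 27025 genes in the table. A match describes letters in these windows and no binding.

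All 15 listed genes of DNA replication were tested and 15 were lower, with a median of −0.34. Of 16 mitosis genes 9 were lower and none higher, with a median of −0.09. Fitted on date, 7 of the 15 and 1 of the 16 were called lower. Mcm5, a subunit of the replicative helicase, had 141, 226 and 273 CPM in the low- and 78.7, 171 and 243 CPM in the high-scoring cultures (−0.43 ± 0.06, adjusted p = 3.34e-08), and 34 of 36 high-scoring ones lay under the low-scoring median. Tyms, thymidylate synthase, had 24.97, 39.9 and 52.5 CPM against 11.8, 25.9 and 41.9 CPM (−0.55 ± 0.08, adjusted p = 1.33e-08). Cdc6, which loads the helicase, had medians of 35.8 and 25.6 CPM (−0.48 ± 0.07, adjusted p = 9.24e-08). Top2a, a topoisomerase of dividing cells, had medians of 721 and 614 CPM (−0.13 ± 0.03, adjusted p = 0.000642). The promoter bases below show the letters TTTNNCGC, which E2F factors are known to bind, in capitals on either strand, for Mcm5 at chr8:75109331-75109392 (GRCm38.p6, plus strand) and Cdc6 at chr11:98907988-98908045 (plus strand).
Mcm5: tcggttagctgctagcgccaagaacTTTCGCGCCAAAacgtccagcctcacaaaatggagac
Cdc6: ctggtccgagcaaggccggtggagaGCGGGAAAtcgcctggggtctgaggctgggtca
Of the 15 replication genes 12 had a window and 7 of these held the letters, against 5.93% of all genes in the table.

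Arg1 belongs to a list of alternative activation genes, a state that IL-4 induces in macrophages. Of 16 listed genes 12 were tested, 9 were higher, Arg1 among them, and none lower, with a median of 0.64. Irf4, a transcription factor of this state, had 0.95, 4.13 and 10.05 CPM against 3.02, 8.63 and 24.3 CPM (1.24 ± 0.16, adjusted p = 1.43e-09). Cdh1, E-cadherin, a fusion-related adhesion protein of this state, had medians of 2.04 and 4.71 CPM (1.26 ± 0.19, adjusted p = 6.8e-08). The secreted protein gene Chil3 was 1.25 higher, with an uncertain count because of close copies. Retnla, another classical marker, had 5 and 3 counts over the groups, and Il4ra and Stat6, the receptor and its transcription factor, had 0.03 and 0.00 and were not called. In the fit with both cell scores 1 of the 12 was called and the median was 0.07. The fit on date called 4 of the 12.

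All 7 class II genes were higher, with a median of 0.61, but 1 of the 7 was called with both cell scores. The median with both scores was 0.09. Within plates the median ran from 0.09 on plates 3 and 4 to 1.34 on plate 7 and 1.38 on plate 10. H2-Aa, an antigen-presenting chain, had 2.74, 19.7 and 46.6 CPM against 10.8, 30.9 and 81.98 CPM (0.76 ± 0.16, adjusted p = 3.61e-05), and Ciita, the regulator of these genes, had medians of 3.91 and 6.10 CPM (0.73 ± 0.17, adjusted p = 0.000243). With both scores H2-Aa had 0.23 (adjusted p = 0.541) and Ciita 0.09 (adjusted p = 0.846). Of 8 dendritic cell markers 7 were higher, with a median of 1.06. Their summed level was 15.6 to 37.1 CPM (median 22.7) in the low- and 24.1 to 129 CPM (median 44.7) in the high-scoring cultures. Each high-scoring sum lay above the low-scoring median, but 1 marker, Itgax, made up most of the sum. Itgax, the integrin CD11c, had 12.03, 17.9 and 30.7 CPM against 19.8, 36.2 and 119 CPM (1.24 ± 0.11, adjusted p = 2.53e-13), and 0.58 with both scores (adjusted p = 0.000906), where it was the 1 marker of the 8 still called. With the date instead of the plate 2 of the 8 were called. Zbtb46, a defining factor of classical dendritic cells, had medians of 0.768 and 0.793 CPM and was not called (0.19 ± 0.18, adjusted p = 0.359).

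Lipid-handling genes of macrophages were mostly higher, with 8 of 12 higher and 2 lower (4 and 0 with both scores) and a median of 0.30. Lpl, lipoprotein lipase, had 195, 384 and 932 CPM in the low- and 337.5, 693 and 1258 CPM in the high-scoring cultures (0.81 ± 0.10, adjusted p = 2.45e-09). Abcg1, a cholesterol exporter, had medians of 18.9 and 41.3 CPM (0.98 ± 0.15, adjusted p = 2.15e-07). Msr1, the scavenger receptor, fell by 0.24 on the log2 scale (adjusted p = 4.52e-05). Cholesterol biosynthesis genes, which the title of the series puts in view, were lower in 13 of 20 and higher in 1, with a median of −0.22. On plate 7 16 of the 20 were above 0, with a median of 0.05. The medians of the other plates ran from −0.08 on plate 3 to −0.55 on plate 2. Without the 2 dates whose libraries were all high-scoring, 5 of the 20 were called lower and 1 higher, with a median of −0.10. Of all 12070 genes tested in that fit 3087 were lower and 2891 higher, so 5 of 20 is near the share of all genes. Hsd17b7, an enzyme late in the pathway, had medians of 33.05 and 23.3 CPM (−0.36 ± 0.08, adjusted p = 0.000101). With both cell scores as covariates none of the 20 was called, and the median was 0.04. With the date instead of the plate 4 were called lower.

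Of 14 inflammatory genes tested 4 were higher and 4 lower, near the shares of all genes tested (28.6% higher and 29.2% lower). Nos2, the inducible nitric oxide synthase, had medians of 0.138 and 0.379 CPM (1.63 ± 0.27, adjusted p = 5.94e-07), and Il1b, a cytokine, 0.912 and 1.79 CPM (0.86 ± 0.18, adjusted p = 6.07e-05). Tnf, the cytokine that synergises with RANKL, was lower, with medians of 33.1 and 26.1 CPM (−0.48 ± 0.12, adjusted p = 0.000372), and it was lower on each of the 6 plates. None of the 14 was called with both cell scores as covariates, where 10.5% of all genes tested were.

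Lysosome genes went both ways, with 9 of 22 higher and 5 lower (5 and 1 with both scores), although their summed level lay above the low-scoring median in 35 of 36 high-scoring cultures. Psap, the precursor of the saposins, had 7297, 9237 and 11100.0 CPM against 8330.0, 11580.0 and 15250.0 CPM (0.36 ± 0.05, adjusted p = 2.37e-09). Gusb, a glucuronidase, fell by 0.26 on the log2 scale (adjusted p = 2.29e-07). Hypoxia and glycolysis genes were higher in 8 of 13 and lower in 1 (3 and 0 with both scores). Vegfa, the vascular growth factor, had 12.5, 39.3 and 151 CPM against 33.4, 122 and 486 CPM (1.55 ± 0.21, adjusted p = 1.01e-08), and 0.44 with both scores (adjusted p = 0.18). Nuclear genes of oxidative phosphorylation, a pathway that osteoclasts use heavily, were lower in 15 of 24 and higher in 1, with a median of −0.12, and 2 of the 24 were called lower with both scores (median −0.04). Atp5b, the catalytic subunit of ATP synthase, had 744, 961 and 1115 CPM against 571, 756 and 1024 CPM (−0.27 ± 0.03, adjusted p = 4.55e-10). Of 9 iron genes 3 were higher and 2 lower, and Tfrc, the transferrin receptor, went from a median of 215 to 136 CPM (−0.56 ± 0.11, adjusted p = 1.34e-05), but none was called lower when the date replaced the plate (Tfrc −0.32, adjusted p = 0.108). Of 13 genes of the integrated stress response 5 were higher and 2 lower, with Atf4, its main factor, 0.31 higher (adjusted p = 0.000269). None of the 13 was called with both scores, where 10.5% of all genes tested were.

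**Figure D4:**
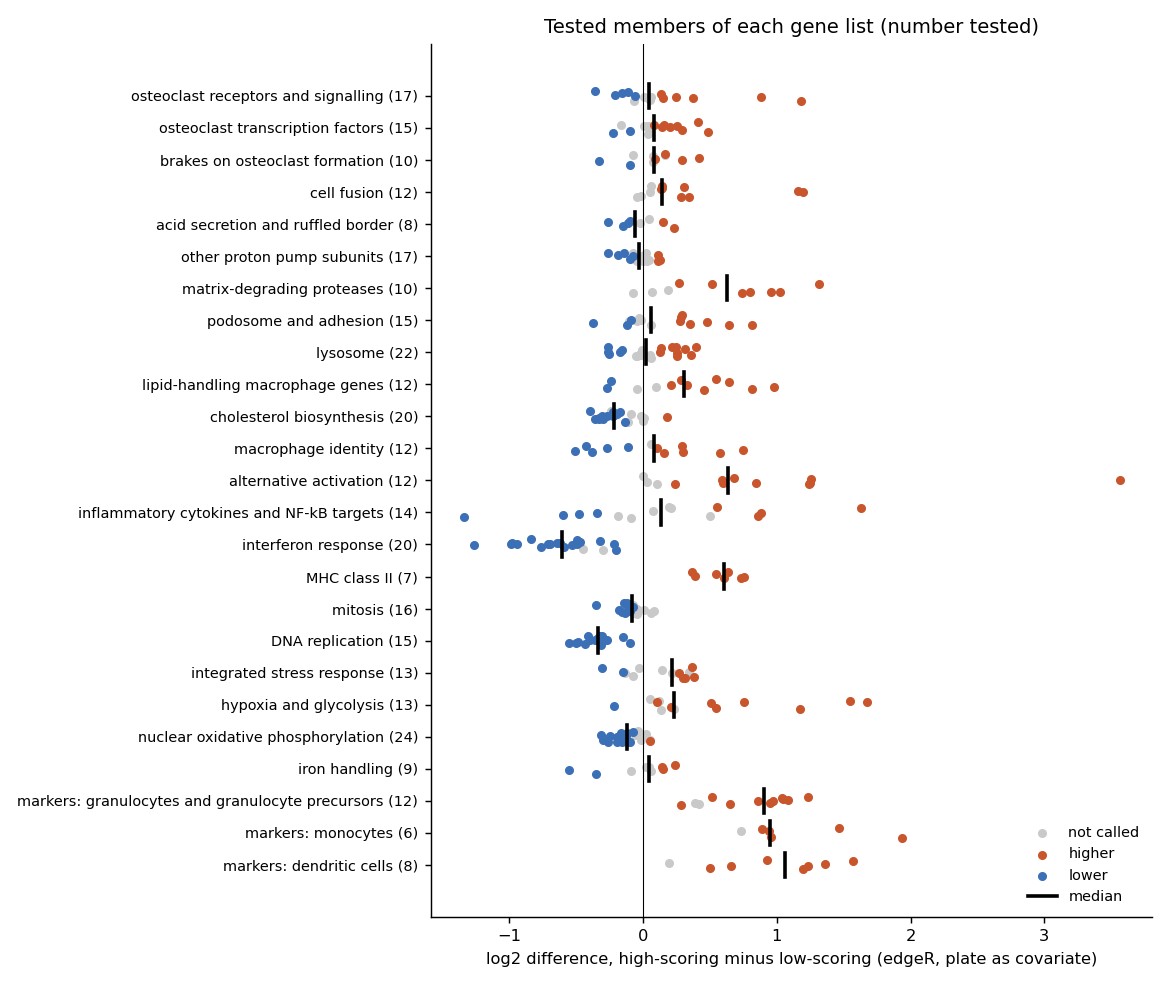
Log2 difference of each tested member of the lists with at least 6 tested members (horizontal axis: high- minus low-scoring; 1 point per gene, coloured by call; bars: medians). Protease, alternative activation, class II and myeloid marker lists have medians above 0.5, the interferon list has −0.60, and the osteoclast receptor, transcription factor, acid and pump lists lie within 0.1 of 0.

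Macrophage identity genes were divided, with 6 of 12 higher and 5 lower. Csf1r, the receptor that the culture medium feeds, had 1401, 1787 and 2093 CPM in the low- and 1380.0, 1617 and 1914 CPM in the high-scoring cultures (−0.11 ± 0.03, adjusted p = 0.000112). Cd68, a lysosomal marker of macrophages, had medians of 1689 and 1715 CPM and was not called (0.06 ± 0.03, adjusted p = 0.0747). Mertk, a receptor for dying cells, fell by 0.43 on the log2 scale (adjusted p = 1.03e-05). When the date replaced the plate 1 of the 12 was called higher and none lower, with −0.08 for Csf1r (adjusted p = 0.0974) and −0.20 for Mertk (adjusted p = 0.218).

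Among markers of other marrow cells, those of monocytes were higher in 5 of 6 (none with both scores), with a median of 0.95 and a summed level of 73.6 to 734 CPM in the low- and 122 to 1124 CPM in the high-scoring cultures. S100a9, an abundant calcium-binding protein of granulocytes, had 4.69, 38.6 and 85.1 CPM against 29.4, 62.6 and 210.0 CPM (1.04 ± 0.15, adjusted p = 3.23e-08). All 3 tested markers of 8 for megakaryocytes and platelets were higher, Itga2b, an integrin chain of platelets, by 1.60 (adjusted p = 2.13e-07), with medians of 0.381 and 1.43 CPM. Of 5 B cell markers 1 was tested, Cd79b, with medians of 1.53 and 3.25 CPM (1.02 ± 0.13, adjusted p = 2.32e-09). Of 6 T and NK cell markers 1 was tested and higher, and of 6 mast cell and basophil markers 2 were tested and higher. None of 6 erythroid markers was tested, and their summed level stayed under 1.33 CPM in both groups. Of 11 markers of stromal cells and osteoblasts 5 were tested and 2 were higher. Pdgfrb, a receptor of stromal cells, had medians of 3.91 and 5.65 CPM (0.58 ± 0.12, adjusted p = 3.86e-05), while the osteoblast genes Bglap and Ibsp had 19 and 9 counts over the high- and 27 and 27 over the low-scoring libraries. How much each of these cell types bears on the results above was not tested.

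**Figure D5:**
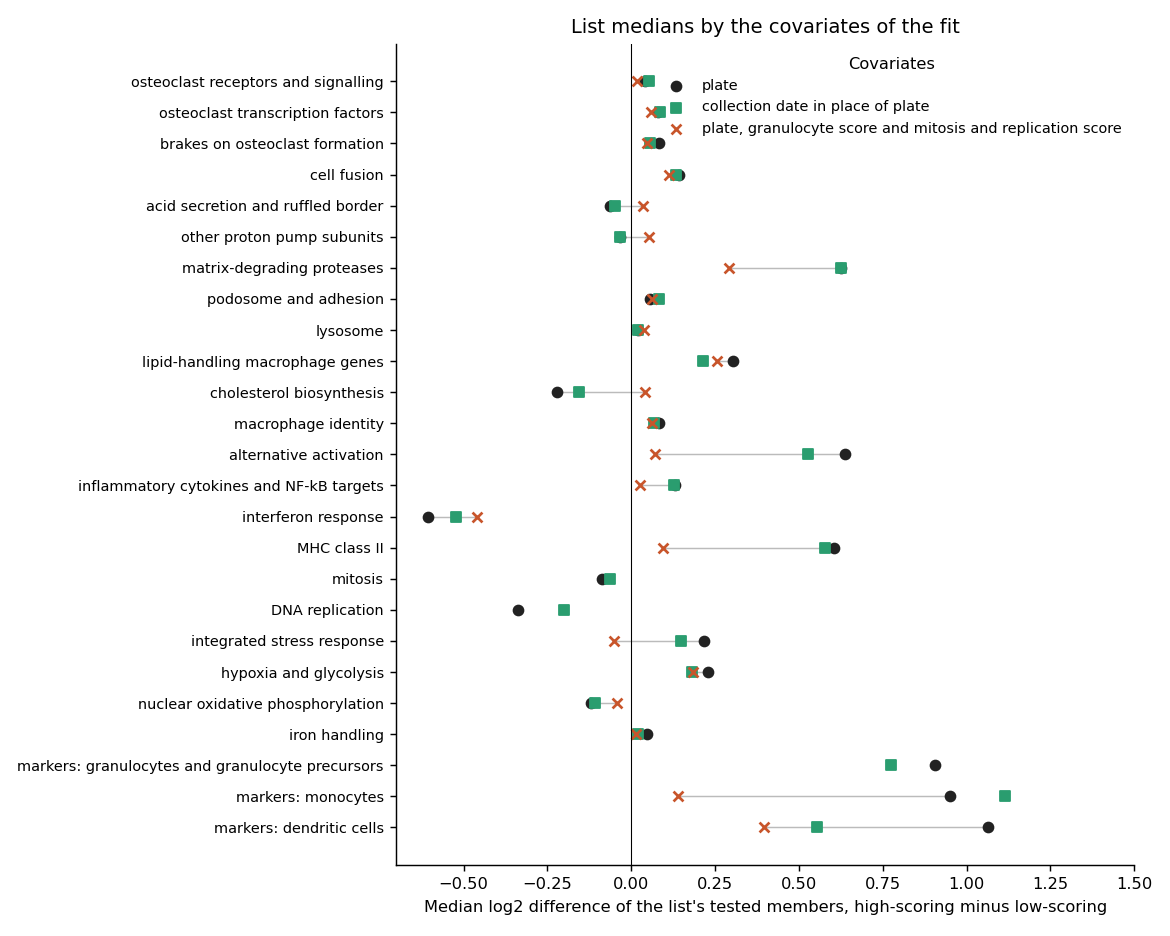
Median log2 difference of each list with at least 6 tested members (horizontal axis) in fits with plate, with collection date in place of plate, and with plate and both cell scores. Medians of the alternative activation, class II and monocyte lists move to between 0.07 and 0.14 with both scores, while the interferon list keeps −0.46. The lists that make up the scores have no such value.

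The 74 cultures between the groups were not used in this contrast, and there each gene was tested for a slope on the score. Of 12817 genes tested 0.437% passed, 24 with a positive and 32 with a negative slope, and 2432 had an unadjusted p under 0.05. The scores of these cultures run only from −0.54 to 0.50. Of the 56 genes 53 were also called between the groups, and each of the 55 tested there had the same direction. Among the genes named above, Ch25h had a slope of −1.48 per unit of score (adjusted p = 0.0425), Pmepa1 −1.08 (adjusted p = 0.0425) and Ctsl 0.56 (adjusted p = 0.0468). F10 had 0.99 (adjusted p = 0.0557), Egr2 1.05 (adjusted p = 0.0706) and Arg1 1.42 (adjusted p = 0.276), and they were not called. The 20 interferon genes had a median slope of −0.68 with none called. None of the osteoclast receptor, transcription factor, fusion and acid genes was called.

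A difference between the sexes in these contrasts was not detected. For the group-by-sex interaction 12407 genes were tested with edgeR and 0 passed (0%), while 585 had an unadjusted p under 0.05, and limma voom also called 0, with 655 under that level.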

How the data were processed

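RNA of 146 bone marrow-derived macrophage cultures was sequenced as paired reads of 100 bases, per the labels' protocols. Per the submitters' processing notes, the authors used FastQC, TopHat2 2.0.11, HTSeq 0.6.1 and DESeq2 with GRCm38/mm10, and the annotation release is not given in the sources used here. The authors deposited raw counts of 22721 genes and a log2 table of 10893 genes after a variance-stabilising transformation. A symbol was found for 21822 of the gene IDs.

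The score, the members and the gene lists were chosen with earlier results of these data known. Counts were fitted with edgeR 4.0.16 (quasi-likelihood test, TMM, low counts filtered by filterByExpr) with plate and group as terms, over all genes, and p-values were adjusted by the Benjamini-Hochberg method without the 4 score genes. Log2 differences within plates are of mean log2 (CPM + 1), and CPM uses the sum of each library's column. Permutation tests drew 100000 permutations within plates. No libraries were near copies of each other. The fit was first tested on simulated counts. Genes with at least 20% of their 50-mers in another annotated gene are called uncertain.

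Named are the 12 genes with the largest difference in each direction among called genes (mean log2 CPM 1 or more), up to 4 members of each list by p, and any member of the osteoclast receptor, transcription factor, brake, fusion, acid and coupling lists. Bglap, Cd68, Cdc6, Ctsb, Ctsd, Ibsp, Ifit1, Il4ra, Isg15, Ly6g, Retnla, Stat6, Tnf and Zbtb46 fall outside this rule and were named after their values were seen. Some genes that the rule names are not reported here. Alternatives changed the tool, filter, covariates, score and libraries. The fit with both cell scores, that within shared dates and that without the 2 dates of high-scoring cultures alone were chosen after seeing the data. Sequences come from RefSeq tables of GRCm38.p6.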

Additional observations from a re-analysis of the deposited data

How the results depend on the processing

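Of 176 named genes tested 151 were called, against 57.7% of all genes tested, but many were named because of their call or p-value. Over 31 alternatives 5062 of 5393 gene and alternative pairs kept direction and side of the threshold. Another 304 lost the call, 19 gained it and 8 turned direction. The losses were uneven. With both cell scores 67 named genes stayed the same, 89 lost the call and 7 turned direction. With the date 47 lost it, and within shared dates 35. The number of genes that differed between the groups moved most with collection date in place of plate (2837, 1352 higher and 1485 lower), with the mitosis and replication score (3474, 1747 higher and 1727 lower), with both cell scores (1257, 656 higher and 601 lower) and within dates that held both groups (3744, 1908 higher and 1836 lower). It lay between 5032 and 7432 in the other fits of high against low, DESeq2 giving 6999 and limma voom 6877. The 7432 were of 17686 genes, tested with no filter beyond at least 1 count in any library. A slope on the score over all 146 libraries, which is not a group difference, passed in 7833 of 12873 genes. In the 74 cultures between the groups DESeq2 called 237 genes on the score and date in place of plate 626. The log2 depth difference was 0.0944 in the 24 highest against the 24 lowest cultures (p = 0.62, permutation). The causes of these shifts were not tested.

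List medians moved with both cell scores to 0.034 for acid secretion, 0.0541 for the proton pump, 0.29 for proteases, 0.0702 for alternative activation, −0.0516 for the stress response, 0.14 for monocyte markers and 0.40 for dendritic cell markers. With the granulocyte score they were 0.10 for osteoclast receptors and 0.195 for macrophage identity, and with the mitosis and replication score 0.42 for proteases, −0.0214 for macrophage identity and 0.80 for dendritic cell markers. Dendritic cell markers had 0.55 with date and 0.72 in 73 against 73 cultures, the stress response −0.0742 with lane, and hypoxia genes 0.43 in 24 against 24. With both scores Spi1 (−0.0136), Ostm1 (0.0561), Lif (−0.0367), H2-DMa (−0.00549), Atf5 (−0.0109), Runx2 (−0.0105) and Nkg7 (−0.14) turned direction, and Nkg7 (−0.0212) with the granulocyte score. No paired analysis was possible because each mouse gave 1 culture and replicate numbers pair no mice. Matching by collection date is what the fit on date and that within shared dates give. Genes under about 1 CPM, such as Efnb2 and Sphk1, are limited by depth.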
